A study of Mus musculus with 8 samples.

Results

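Reelin, its receptors and their adaptor were examined through 4 genes, Reln, Vldlr, Lrp8 and Dab1, chosen by name among 21887 protein-coding genes. The mark was H3K9ac, acetylated lysine 9 of histone H3, which is typical of promoters in use. It was mapped by ChIP-seq in whole cerebellum of C57BL/6 mice aged 9 weeks. The peak lists came from 4 libraries of mice heterozygous for a 266Q knock-in allele, which lengthens the glutamine tract of ataxin-7 and models spinocerebellar ataxia type 7, and 4 libraries of their wild type littermates. The knock-in mice were symptomatic per the series design. The labels do not say whether replicates were separate or pooled animals, so tests measure the spread between these libraries. Peaks were taken where they overlapped a gene or lay within 5 kb of it on mm10. A peak touching 1 kb on each side of an annotated gene end was a gene-end peak, and a peak inside the gene that touched neither window was internal. This gave 44 of the 52676 listed peaks, 23 at gene ends and 21 internal.

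Reelin is a secreted glycoprotein, made in the cerebellum mainly by granule cells, that guides Purkinje cells to their layer during development and acts on synapses later. It binds the very-low-density lipoprotein receptor, encoded by Vldlr, and apolipoprotein E receptor 2, encoded by Lrp8. The bound receptors cluster, and the adaptor Dab1 on their cytoplasmic tails is phosphorylated by the Src-family kinases Fyn and Src. Phosphorylated Dab1 recruits Crk adaptors and phosphoinositide 3-kinase, and is then removed by a ubiquitin ligase of Cul5 and Socs7.

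The libraries were unequal in a way that touches every value below. Replicates 1 and 2 of each genotype gave 7735 to 11409 peaks with median widths of 1065 to 1246 bp. Replicates 3 and 4 gave 1266 to 5571 peaks with median widths of 132 to 148 bp. The lists hold no read counts, so depth is unknown, and a gene without a listed peak is not shown to lack the mark. In whole tissue, fewer cells with the mark and less mark per cell cannot be told apart. All 12 granule cell markers had a gene-end peak in at least 1 library, and 45.0% of all protein-coding genes did. Granule marker counts were 12, 11, 6 and 0 for replicates 1 to 4 of knock-in and 12, 9, 3 and 2 in wild type. Purkinje marker counts in the same order were 3, 4, 1 and 0 and 2, 4, 1 and 0, with 5 of 10 found in at least 1 library. For interneurons it was 2 of 6 and for the oligodendrocyte lineage 1 of 6. For vascular cells it was 1 of 5, and it was 0 of 5 for Bergmann glia and astrocytes, 0 of 5 for microglia and 0 of 6 for forebrain neurons.

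The starts of the 4 genes differ in base composition, which is shown here because the peaks lay at some of these starts and not at others. Each line holds the 250 bases before a RefSeq start site (GRCm38.p6, the assembly named mm10), 5′ to 3′ on the gene's strand, with GC boxes in capitals (GGGCGG, or CCGCCC for the other strand). All 4 genes matched the RefSeq table, Reln with 1 start, Vldlr and Dab1 with 2 and Lrp8 with 3.
Reln, chr5:22344706-22344955, minus strand: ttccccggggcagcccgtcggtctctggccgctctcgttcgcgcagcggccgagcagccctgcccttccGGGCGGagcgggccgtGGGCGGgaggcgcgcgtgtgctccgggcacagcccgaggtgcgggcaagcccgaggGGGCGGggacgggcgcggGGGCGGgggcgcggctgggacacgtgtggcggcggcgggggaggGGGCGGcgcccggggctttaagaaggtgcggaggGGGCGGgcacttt
Dab1 internal start, chr4:104367288-104367537, plus strand: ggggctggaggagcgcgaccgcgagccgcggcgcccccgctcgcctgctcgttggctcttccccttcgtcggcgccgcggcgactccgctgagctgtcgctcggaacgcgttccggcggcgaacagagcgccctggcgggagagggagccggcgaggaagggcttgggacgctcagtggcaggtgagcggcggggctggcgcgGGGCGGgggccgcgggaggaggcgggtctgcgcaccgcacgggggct
Dab1 outer start, chr4:103619250-103619499, plus strand: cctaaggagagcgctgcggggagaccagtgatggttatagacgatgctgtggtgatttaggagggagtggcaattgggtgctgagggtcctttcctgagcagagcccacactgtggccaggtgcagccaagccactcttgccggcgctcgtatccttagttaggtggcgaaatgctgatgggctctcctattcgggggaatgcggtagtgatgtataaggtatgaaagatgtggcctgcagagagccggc
Vldlr outer start, chr19:27216234-27216483, plus strand: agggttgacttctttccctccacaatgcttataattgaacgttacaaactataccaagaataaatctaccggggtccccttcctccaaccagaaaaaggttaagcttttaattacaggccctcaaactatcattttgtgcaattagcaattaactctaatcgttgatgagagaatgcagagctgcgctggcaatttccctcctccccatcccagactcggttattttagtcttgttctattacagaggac
Lrp8 first listed start, chr4:107802635-107802884, plus strand: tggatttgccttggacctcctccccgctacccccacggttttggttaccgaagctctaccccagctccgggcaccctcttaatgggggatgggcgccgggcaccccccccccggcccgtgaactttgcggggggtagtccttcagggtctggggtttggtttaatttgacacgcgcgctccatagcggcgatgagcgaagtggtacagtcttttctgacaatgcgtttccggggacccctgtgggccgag

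The Reln window held 37 CpG dinucleotides and 6 GC boxes, and the window at the internal Dab1 start held 40 CpG and 1 GC box. They had more CpG than 97.8% and 98.7% of the 32851 such windows, whose median was 6. The outer Dab1 start had 10 CpG, the outer Vldlr start 5 and the Lrp8 start 18, and none of these 3 windows held a GC box. The window of the second Vldlr start, which is not shown, held 18 CpG, 1 GC box and 1 CCAAT. A GC box was present in 32.7% of all windows. No member window held a TATA box by its letters TATAAA on either strand, against 12.4% of all windows. The letters CCAAT, searched on both strands, occurred among the windows shown only in that of the outer Dab1 start, once, and in 33.8% of all windows. Across all starts in the table, a peak lay within 1 kb of 59.5% of starts with a GC box and 15.5% of those without in knock-in replicate 1, and of 49.5% and 12.4% in wild type replicate 1. The match is a description of the letters and not of a bound factor.

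**Figure D1:**
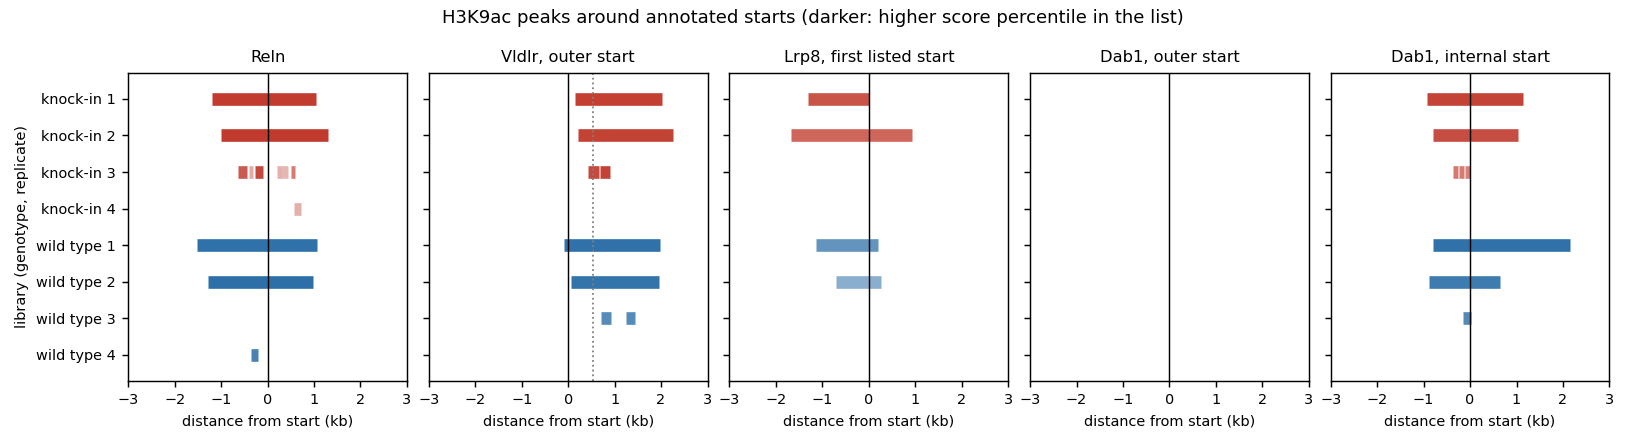
Peaks of each library (rows, knock-in in red and wild type in blue) plotted by distance in kb from 5 annotated starts, with darker bars for higher score percentiles and a dotted line at the other Vldlr start. Peaks covered the Reln start and the internal Dab1 start in replicates 1 and 2 of both genotypes, began near or beyond the outer Vldlr start, and were absent from the outer Dab1 start in all 8 libraries.

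Reln, the ligand gene (chromosome 5, 21884454 to 22344705, 460 kb), carried a peak at its start in 4 of 4 knock-in and 3 of 4 wild type libraries. Knock-in replicates 1 and 2 had single peaks with widths of 2254 and 2303 bp, and the wild type ones widths of 2595 and 2253 bp. In knock-in replicate 3 the same stretch was listed as 6 narrow peaks of 103 to 210 bp, summing to 839 bp. Knock-in replicate 4 had a peak of 140 bp located 570 to 709 bp inside the gene, wild type replicate 4 a peak of 145 bp before the start, and wild type replicate 3 none. The libraries with broad peaks were thus alike in both genotypes, and detection at the start differed between genotypes by 1 library, wild type replicate 3.

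The Reln start peak was among the best-scored of the 4 long lists. The deposited score is the peak caller's own value, and its percentile here is the peak's rank among all peaks of its list. The best Reln peak stood at percentile 97.6, 98.7, 88.3 and 7.62 for replicates 1 to 4 of knock-in, and at 98.0, 99.4 and 80.2 in wild type replicates 1, 2 and 4. Only 34 of 6076 genes with a gene-end peak had a higher best score in wild type replicate 2, and 228 of 8565 did in knock-in replicate 1. In knock-in replicate 4 the order was the opposite, with 185 of 196 genes above Reln.

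The acetylated stretch at Reln reached farther upstream than at most genes. In the long lists it extended 1205 and 993 bp before the start for knock-in, and 1522 and 1274 bp for wild type. For genes with a single listed start covered by a peak, the median upstream reach was 387 to 474 bp in these lists. Downstream the knock-in peaks extended 1048 and 1309 bp and the wild type peaks 1072 and 978 bp, against medians of 753 to 849 bp.

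The difference of 1 library in gene-end detection of Reln was not called, and the test could not have called it. For a gene found in 7 libraries only a difference of 1 library, in either direction, is possible. The two-sided conditional exact test, which is conditional on how many libraries listed the gene, gave 0.385 unadjusted and a Benjamini-Hochberg adjusted p of 1 over 9826 genes. The same test called 0% of these genes (0 genes), and 0.916% fell under 0.05 before adjustment. Fisher's exact test gave 0 calls and none under 0.05 before adjustment. Detection was more frequent among the knock-in libraries for 48.1% of those genes and among the wild type libraries for 11.6%. Peaks at Reln were found in 7 libraries, a number that 235 genes (1.07%) reached or passed.

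Inside Reln a weak peak recurred near the 3′ end of the gene. The region (chromosome 5, 21906261 to 21907544) had its centre 438 kb downstream of the start. The only listed start of Reln was 437161 bp away, and starts of other genes were not searched. It was listed in knock-in replicates 1, 2 and 3 and in wild type replicates 1 and 2. The knock-in percentiles were 19.7, 37.1 and 2.24 and the wild type ones 5.86 and 23.1, so it was a low-ranked peak in each list. Wild type replicate 1 alone had a second peak of 1031 bp beside it. With a score of at least 100, or with lists of equal length, no library kept an internal Reln peak. Internal detection gave a conditional exact p of 1 before and after adjustment over 3996 genes. Of these 0% were called, 0.501% fell under 0.05 before adjustment, 40.9% had more knock-in and 31.1% more wild type libraries. Fisher's exact test gave 0 calls and none under 0.05 before adjustment.

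**Figure D2:**
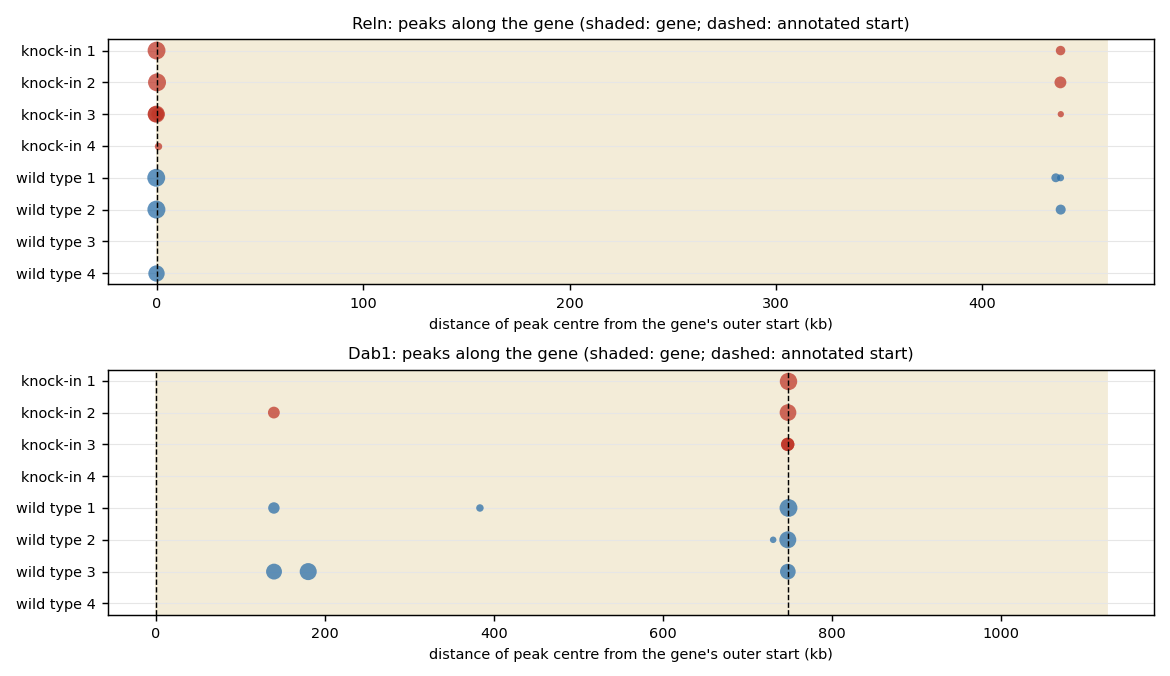
Peak centres along Reln and Dab1, in kb from each gene's outer start, for the 8 libraries (knock-in red, wild type blue), with larger points for higher score percentiles, shading for the gene and dashed lines for annotated starts. Reln peaks gathered at the start and at 438 kb, and Dab1 peaks at the internal start near 749 kb and at 140 kb.

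Vldlr, the gene of the first receptor (chromosome 19, 27216480 to 27254231), had a gene-end peak in 3 of 4 libraries of each genotype. Its width was 1867 and 2042 bp in the long knock-in lists and 2061 and 1901 bp in the long wild type lists. Knock-in replicate 3 had narrow peaks of 242 and 214 bp, and wild type replicate 3 narrow peaks of 208 and 196 bp, the second of them beyond the 1 kb window and counted as internal. Replicate 4 had none in either genotype. The score percentile of the best gene-end peak was 95.3, 93.4 and 92.0 for replicates 1 to 3 of knock-in and 97.5, 95.4 and 69.6 in wild type. The peaks lay on the gene side of the outer start. They began 153, 210 and 51 bp downstream of it in knock-in replicates 1 and 2 and wild type replicate 2, and at -94 bp in wild type replicate 1. All 4 covered the second listed start, whose 250-base window had 18 CpG. The conditional exact p was 1 before and after adjustment. The stretch also lies within the long non-coding gene Gm35438, whose span holds all of Vldlr.

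Lrp8, the gene of the second receptor (chromosome 4, 107802200 to 107876840), had a peak at its start only in the 4 long lists. Its width was 1299 and 2617 bp in the knock-in lists and 1351 and 984 bp in the wild type lists. The knock-in peaks ranked at percentiles 78.4 and 65.1, the wild type peaks at 60.9 and 31.4. Lrp8 ranked below Reln, Vldlr and Dab1 in each of these 4 lists. Ranks from lists of different lengths cannot show whether the genotypes differ. Most of the peak lay before the first listed start, at position 107802885. It ran from -1303 to -5 bp in knock-in replicate 1 and from -714 to 269 bp in wild type replicate 2. The gene itself is annotated from 107802200, so this listed start lies inside it and most of the peak is not shown to lie upstream of Lrp8. All 4 peaks crossed the annotated beginning of the gene. The wild type replicate 2 peak, from 107802171 to 107803154, lay almost wholly inside it. In 3 of the 4 libraries the peak also overlapped Lrp8os3, a non-coding gene that ends 136 bp before Lrp8. The other listed starts of Lrp8 had no peak within 1 kb in any library, and the gene had no internal peak. The conditional exact p was 1 before and after adjustment. When every list was shortened to its 1266 best-scored peaks, Lrp8 had no peak left in any library.

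Dab1, the adaptor gene (chromosome 4, 103619500 to 104744844, 1125 kb), had no gene-end peak in any library, and its acetylation lay at an annotated internal start, in a region centred 749 kb into the gene. That internal start at position 104367538 was marked in replicates 1, 2 and 3 of each genotype and in neither replicate 4. In the long lists its width was 2063 and 1836 bp for knock-in and 2953 and 1523 bp for wild type. Knock-in replicate 3 had 3 narrow peaks of 102 to 118 bp and wild type replicate 3 a peak of 185 bp. The best percentile at this start was 92.3, 84.2 and 50.5 for replicates 1 to 3 of knock-in and 97.6, 87.0 and 72.3 in wild type. These values overlapped between genotypes. The peak reached 921 and 807 bp upstream and 1141 and 1028 bp downstream in knock-in, and 791 and 880 bp upstream and 2161 and 642 bp downstream in wild type.

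A position inside the gene and no gene-end peak was not particular to Dab1. Of 2378 genes with a listed start more than 2 kb from either gene end, 103 had a peak within 1 kb of such a start in 6 or more libraries. Of these, 72 (69.9%) had no gene-end peak in any library, and Dab2ip, which encodes a protein that binds Dab1, was another of the 72. When peaks within 1 kb of any listed start were counted instead, a choice made after seeing where the Dab1 peaks lay, Dab1 was found in 3 of 4 libraries of each genotype, with a conditional exact p of 1. Over the 8074 genes tested this way, 0% were called and 0.867% fell under 0.05 before adjustment. Of the 17492 genes with a listed start, 885 (5.06%) were found at a start in 6 or more libraries.

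Other peaks inside Dab1 were fewer and recurred less. The region at chromosome 4, 103758875 to 103759968, about 140 kb from the outer start, was listed in knock-in replicate 2 and wild type replicates 1 and 3, at percentiles 36.7, 33.7 and 74.9. No listed start of Dab1 lay nearer to it than 139375 bp, and starts of other genes were not searched. The remaining 3 regions were each in a single wild type library, 76 to 722 bp wide, at percentiles 87.9, 8.05 and 3.45. Knock-in libraries thus had 1 internal region besides the internal start and wild type libraries 4, a difference that was not tested.

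Over the span of each gene with 5 kb on each side, Reln was found in 4 and 3 libraries, Vldlr and Dab1 in 3 and 3, and Lrp8 in 2 and 2. For Reln, as at its gene end, no possible split between genotypes could have been called. The conditional exact p was 0.443 for Reln and 1 for the others, with adjusted p of 1 over 12244 genes. Of those genes 0% were called, 1.28% fell under 0.05 before adjustment, 45.7% had more knock-in and 15% more wild type libraries. Fisher's exact test called 0, with 2 under 0.05 before adjustment. No member peak lay wholly outside its gene except the 4 peaks just before the Reln start. The nearest peaks beyond the 5 kb limit were 12488 bp from Lrp8, 55530 bp from Dab1, 90453 bp from Reln and 175908 bp from Vldlr.

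The length of DNA covered by peaks gave the size of the genotype difference with its spread. It was expressed as bp in the gene and 5 kb on each side per Mb covered by the whole list. This scales for list length, and short lists of narrow peaks can still give high values. For Reln, 140 bp covered gave 594 bp per Mb in knock-in replicate 4, and 2960 bp gave 204 in knock-in replicate 1. Reln had 204, 244, 1023 and 594 bp per Mb for replicates 1 to 4 of knock-in and 341, 345, 0 and 509 in wild type. The knock-in mean was 516 ± 381 (SD, n = 4) and the wild type mean 299 ± 214 (SD, n = 4), and a two-sided exact permutation test gave 0.457. The groups overlapped. Knock-in replicate 3, with 1014 bp covered, in a list covering 0.991 Mb, was the highest. Without knock-in replicate 3 the difference changed from 217 to 48.4 bp per Mb, and without wild type replicate 3 to 118. Within replicates 1 and 2 the direction was the opposite, with both wild type lists above both knock-in lists and means of 224 and 343. That order held for 13% of the 11955 genes covered in those lists, and the reverse order for 16.6%.

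Dab1 had 142, 203, 330 and 0 bp per Mb for replicates 1 to 4 of knock-in and 320, 243, 699 and 0 in wild type. The mean was 169 ± 137 (SD, n = 4) against 316 ± 290 (SD, n = 4), and the exact permutation test gave 0.457. Within replicates 1 and 2 the wild type lists were again both higher, with means of 173 and 282. The same order held for Vldlr, with means of 135 and 177, and not for Lrp8, whose means were 135 and 102. Without wild type replicate 3 the Dab1 difference changed from -147 to -18.9 bp per Mb. For Vldlr the knock-in mean was 183 ± 196 (SD, n = 4) and the wild type mean 261 ± 299 (SD, n = 4), at 0.6 in the same exact test. Without wild type replicate 3 its difference changed from -78.1 to 64.6 bp per Mb. For Lrp8 they were 67.7 ± 86.7 (SD, n = 4) and 50.8 ± 58.9 (SD, n = 4), at 1 in that exact test, and its difference changed from 17.0 to -20.9 bp per Mb without knock-in replicate 2. Each adjusted p was 1 over 12329 genes, of which 0% were called, 0.203% had an unadjusted exact permutation p under 0.05 and 60.4% had the higher mean in knock-in. With 4 against 4 libraries the smallest p is 0.0286.

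**Figure D3:**
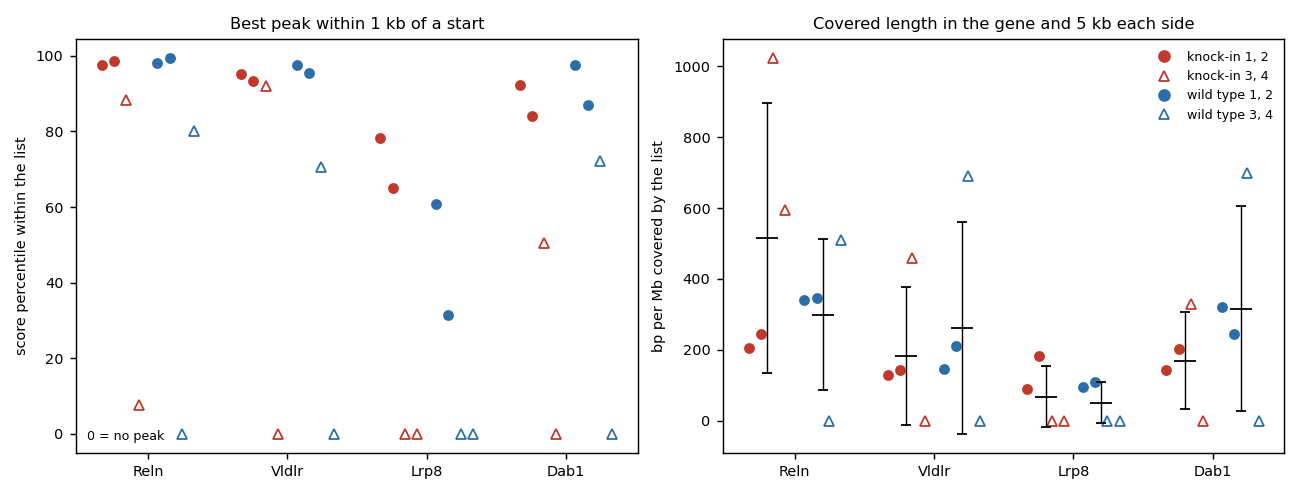
Left, score percentile of the best peak within 1 kb of a listed start, with 0 for no peak, and right, covered length in bp per Mb of the list with mean and SD (n = 4), for each gene, genotype and library (filled circles, replicates 1 and 2; open triangles, replicates 3 and 4). Reln was the highest and Lrp8 the lowest of the 4 genes in each long list on the left, and the genotypes overlapped for every gene on the right.

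Genes with score patterns most like the members were found over the 8 libraries by the mean absolute difference of the best gene-end percentile, with 0 for no peak. Nearest to Reln were Nr2f1 and Ulk2, at differences of 2.70 and 2.77 percentile points, against a median of 51.1 over all genes with a peak. Neither had the presence pattern of Reln, which 9 other genes shared. Nearest to Vldlr were Fgfr1, Cnot2 and Lats1 at 1.40, 1.55 and 1.59, among 603 genes of the same presence pattern. Nearest to Lrp8 were Aldh7a1, Hip1r and Odc1 at 1.44, 1.49 and 1.66, among 2565 genes. Dab1 had no gene-end peak to compare.

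The wider pathway was described by 59 further genes in 6 groups. Of these, 49 (83.1%) had a gene-end peak in at least 1 library, against 45.0% of all protein-coding genes. They numbered 45, 45, 11 and 2 for replicates 1 to 4 of knock-in and 42, 36, 6 and 3 of wild type. Among the 49, 20 (40.8%) were listed more often in knock-in, 7 (14.3%) more often in wild type and 22 equally often. Over all genes with a gene-end peak the shares were 48.0% and 11.6%, so the pathway leaned no more to knock-in. All-gene counts were 8565, 7927, 2276 and 196 for replicates 1 to 4 of knock-in and 6977, 6076, 1188 and 319 of wild type. The counts of the 6 groups below are to be read against these shares. None passed the conditional exact test over all genes, and none had an unadjusted p under 0.05. The median difference was 0 libraries, as it was over all genes.

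Among proteases, other ligands and co-receptors, 8 of 12 had a gene-end peak, with 4 in more libraries of knock-in and 2 in more of wild type. Itgb1, the beta subunit of an integrin receptor for Reelin, had a peak in all 4 knock-in and in 2 wild type libraries (conditional exact p = 0.0907, adjusted to 1). Adamts3, which encodes a protease that cleaves and inactivates Reelin, had a peak in 2 libraries of knock-in and in none of wild type (conditional exact p = 0.501, adjusted to 1). Itga3, the alpha subunit that pairs with Itgb1, was found in 3 and 2, and Adamts2, a related protease, in 2 and 2. Thbs1 and Apoe, which encode other ligands of these receptors, had no peak in any library.

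Of the other lipoprotein receptors and their trafficking genes, 8 of 10 had a gene-end peak, with 5 in more libraries of knock-in and 0 in more of wild type. Mylip, whose product marks Vldlr and Lrp8 proteins for degradation, was found in 3 and 2. Lrp1 and Lrp4, genes of larger receptors of the family, were each found in 2 and 2.

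Downstream of Dab1, 14 of 15 kinase and adaptor genes had a gene-end peak, with 3 in more knock-in, 2 in more wild type libraries and 9 equal. Fyn, the kinase that phosphorylates Dab1, was found in 4 knock-in and 3 wild type libraries, the same numbers as Reln. Pik3ca, a catalytic subunit of phosphoinositide 3-kinase, was found in 3 and 3, and the adaptor gene Crk in 3 and 2. All 5 genes listed for the removal of Dab1 had a gene-end peak, and Socs7, which encodes the recognition subunit, was found in 3 knock-in and 4 wild type libraries. Cul5, the scaffold, and Cbl, another ubiquitin ligase, were each found in 2 and 2.

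Of the cytoskeletal genes 10 of 12 had a gene-end peak, with 4 in more libraries of knock-in and 2 in more of wild type. Cdk5r2, an activator of the kinase Cdk5, was found in 3 and 3, and Ndel1, a partner of the Lis1 protein, in 3 and 2. Of the synaptic partners 4 of 5 had a gene-end peak, with 2 in more libraries of knock-in and 0 in more of wild type. Grin2a, an NMDA receptor subunit gene, was found in 3 and 2 libraries, Dlg4, the gene of the scaffold PSD-95, in 2 and 2, and Grin1, the shared NMDA receptor subunit gene, in 2 and 1. With windows of 3 kb or 5 kb, Grin1 was instead found in 3 knock-in and 4 wild type libraries.

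**Figure D4:**
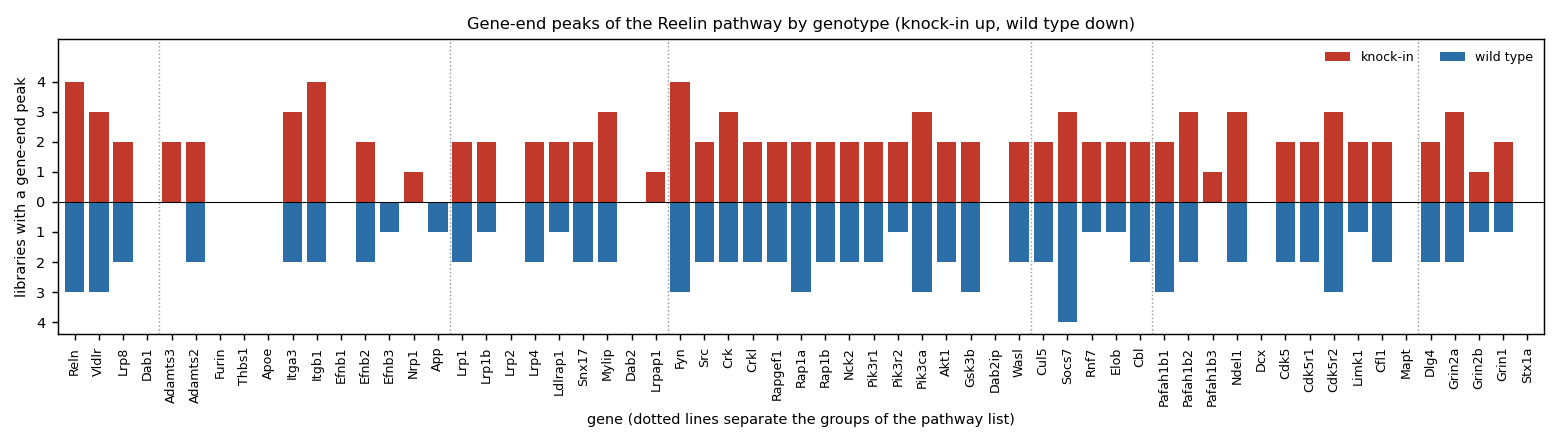
Number of libraries with a gene-end peak (vertical axis, 0 to 4) in knock-in (red, upward) and wild type (blue, downward) for the 4 members at the left and 57 of the 59 pathway genes, with dotted lines between groups. Itgb1 at 4 against 2 and Adamts3 at 2 against 0 were the pathway genes drawn that differed by 2 libraries, and neither passed the test.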

How the data were processed

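H3K9ac peaks were listed separately for 8 cerebellar libraries. Per the file headers, the authors called peaks with MACS in Galaxy, and per the submitters' processing notes Bowtie2 and mm10 were used. The labels and headers used here state no caller settings and no input control. Each deposited score has no stated scale and was used only to rank or filter peaks within a list. In 15 of 52676 peaks a negative start was replaced by 0. Genes and start sites came from RefSeq tables of GRCm38.p6. The members and gene lists were chosen with earlier results of these data known.

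Presence of a peak per gene (overlap of 1 bp or more) was compared by a two-sided conditional exact test with library detection odds from a Rasch model fitted over all genes, for genes found in 1 to 7 libraries. Benjamini-Hochberg adjustment was over all genes tested, with a threshold of 0.05. Covered length was compared by an exact permutation test over 70 assignments. The detection tests were tested on simulated data with 200 genes listed in 4 libraries of one genotype and 0 of the other. The gene-end test called 200 of them among 9851 genes, the span test 200 among 12329 and the internal-peak test 0 among 4026. The gene-end test also called 2 unchanged genes. Smaller differences, and fewer changed genes than 200 at once, were not simulated. Counts of 0 therefore set no limit on them, nor on any internal change. Python 3.11.15, numpy 2.4.6, pandas 2.3.3 and scipy 1.17.1 were used. Group and replicate came from sample titles. The text names the 4 members, pathway genes that differ by 2 or more libraries at gene ends, up to 3 genes per group found in most libraries, and up to 3 genes most alike to each member. Some genes given by the rule are not reported here by name, though they remain in the group counts. Dab2ip, Thbs1 and Apoe were named after their values were seen. Alternatives were replicate block, Fisher's exact test, equal list lengths, a score of at least 100, an overlap of at least 100 bp, other windows, unscaled length, left-out libraries and subsets of replicates.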

Additional observations from a re-analysis of the deposited data

How the results depend on the processing

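Detection of the 4 genes at ends, inside and over the span (12 results, 216 recomputed values) stayed uncalled. The adjusted p was 1 wherever a test was possible. In the main setting the test could not have called Reln at gene ends or over the span. Only 4 of the 12 differences were not 0 (Reln at all 3 places and Vldlr inside the gene), and of their 72 recomputed values 58 kept the sign, 14 became 0 and 0 took the opposite sign. Of the 144 recomputed values for the 8 differences of 0, 57 moved away from 0. Among these, with lists of equal length, Dab1 was listed in 1 library of knock-in and 3 of wild type, inside the gene and over the span. The number of genes called at gene ends ranged from 0 to 1 when a library was left out, the 1 call being Lrrc74b without wild type replicate 2, and the other 65 of 66 recomputed counts of called genes were unchanged at 0. For covered length, 46 of 52 recomputed values kept their direction. The difference, knock-in minus wild type, of Reln was 48.4 to 321 bp per Mb with a library left out, -130 bp without scaling and -120 bp per Mb in replicates 1 and 2 alone. For Dab1 it was -252 to -18.9 bp per Mb with a library left out. For Lrp8 it was -2.19 bp per Mb in the gene alone and -20.9 to 39.5 with a library left out. For Vldlr it was 278 bp per Mb with a score of at least 100 and -171 to 64.6 with a library left out. The cause of these reversals was not tested. Grin1 changed to a difference of -0.25 in the share of libraries with windows of 3 kb and 5 kb. As a replicate block the numbers gave Reln a covered difference of 217 bp per Mb with an exact p of 0.875. The smallest p of that block test is 0.125, so it could call no gene. The block changed no call in the detection tests. Same-numbered libraries correlated at 0.0464, 0.112, 0.135 and 0.401. Knock-in replicates 2, 3 and 4 each correlated best with the same-numbered wild type library. Knock-in replicate 1 correlated slightly better with wild type replicate 2 (0.0529). Whether the numbers mark pairs is thus not settled, and the main tests did not pair them. Fisher's exact test ignores list length and could reach a p under 0.05 only for genes found in exactly 4 libraries. These were 2698 genes at ends, 539 inside and 3151 over the span. Precision is limited by the unknown depth and by 4 libraries a group. The highest and lowest library of each member in each genotype were tested as outliers in 16 groups, and 0 passed.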
